A study of Macaca mulatta with 9 samples.

Results

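The genes described here mark the 2 cell layers of the prostate epithelium and the basement membrane beneath them: the basal keratins KRT5 and KRT14 with the transcription factor TP63 (p63), the luminal keratins KRT8 and KRT18, and the adhesion genes ITGB4, LAMA5 and LAMB2. They are 8 genes, each with 1 of the 20217 probes of the array. The first 5 were taken by the human RefSeq accession that the array files give as the probe's name, NM_000424 for KRT5, NM_000526 for KRT14, NM_003722 for TP63, NM_002273 for KRT8 and NM_000224 for KRT18. ITGB4, LAMA5 and LAMB2 were taken by symbol from the authors' deposited table, which keeps 1502 probes that passed a 1-way analysis of variance and a fold criterion on these same arrays. The dose differences of those 3 genes are therefore not independent evidence of an effect, while none of the 5 accession probes is in that table.

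Prostate glands are lined by a luminal layer that makes the secretion and a basal layer that rests on the basement membrane. Keratins form filaments as pairs of a type II and a type I chain, KRT5 with KRT14 in basal cells and KRT8 with KRT18 in luminal cells. p63 is the transcription factor that basal cells of stratified and glandular epithelia need, and in skin it is known to drive the KRT5 and KRT14 genes. Integrin beta 4, the product of ITGB4, anchors basal cells through hemidesmosomes to laminins, which are trimers of an alpha, a beta and a gamma chain. LAMA5 and LAMB2 encode the alpha 5 and the beta 2 chain, and the beta 2 chain is also made by muscle and vessel walls. In the macaque reference table the KRT8 and KRT18 genes are neighbours, with no protein-coding gene between them.

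Each array held RNA of the whole prostate of 1 rhesus monkey (Macaca mulatta), the grown offspring of a dam dosed with TCDD or its vehicle; TCDD is a long-lived dioxin and a ligand of the aryl hydrocarbon receptor. The dams were injected under the skin on gestation day 20 with vehicle (0 ng/kg), 30 ng/kg or 300 ng/kg TCDD, followed by 5% of that dose at intervals of 30 days, up to day 90 after birth. Only the dams were dosed, so the offspring were exposed in the womb and through milk, and their prostates were taken 7 years later. There were 3 offspring in each of the 3 groups, and the labels used here do not say which offspring shared a dam. In RNA from whole glands, fewer cells of a type and less RNA per cell cannot be told apart.

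A level below is the log2 of a probe's background-subtracted signal relative to the 75th percentile of its own array, so 0 is the brightness at that percentile and 1 unit is a doubling. That percentile was 835 ± 341 intensity units for vehicle, 688 ± 579 for 30 ng/kg and 1748 ± 570 for 300 ng/kg arrays (SD, n = 3 each). Of the 3 slides, slide 1 carried 2 vehicle arrays, slide 2 the third vehicle array with 2 of 30 ng/kg, and slide 3 the last of 30 ng/kg with all 3 of 300 ng/kg, so 300 ng/kg and vehicle never met on a slide. All 9 arrays entered 1 limma fit over the 15160 probes that some group had well above background in each of its 3 animals. The threshold was an adjusted p (Benjamini-Hochberg, over those probes) under 0.05, and no probe, member or other, passed in any of the 3 comparisons. At an unadjusted p under 0.05 the counts were 2357 probes for 300 ng/kg minus vehicle, 766 for 30 ng/kg minus vehicle and 3130 for 300 minus 30 ng/kg. Levels of different probes cannot be set against each other, since each probe binds its target with its own strength.

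As a check of the labelled tissue, basal and luminal epithelial markers were detected in every animal. KRT5, KRT14, TP63, KRT18, ITGB4, LAMA5 and LAMB2 were well above background on all 9 arrays. The KRT8 probe was not: it was well above background on 1 vehicle array, 2 arrays of 30 ng/kg and all 3 of 300 ng/kg, with signals of 11.8 to 93.6 intensity units over the 9 arrays. It entered the fit only through the 300 ng/kg group. No spot of these 8 probes was saturated or marked as an outlier.

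The 3 basal genes held the widest spread of the 8 in single animals, and none of their dose differences passed the adjusted threshold. KRT5 stood at 1.23, 1.66 and -1.82 in the vehicle animals, at -1.83, 1.53 and -0.17 in those of 30 ng/kg, and at 2.15, 1.02 and 2.53 in those of 300 ng/kg. TP63 stood at 0.58, 1.02 and -1.31 in vehicle, at -0.07, 1.17 and 0.78 at 30 ng/kg, and at 2.26, 0.71 and 2.79 at 300 ng/kg. All 3 animals of 300 ng/kg had both genes above the 75th percentile, but their lowest value of each gene lay below the highest vehicle value, so the groups overlapped. KRT14 stood at -1.16, -1.09 and 1.37 in vehicle, at -0.52, -1.81 and 0.08 at 30 ng/kg, and at -0.97, -0.60 and 0.55 at 300 ng/kg. In vehicle replicate 3, KRT5 and TP63 had their lowest vehicle values and KRT14 its highest value of all 9 arrays.

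The mean TP63 level ran in dose order, with 0.10 ± 1.24 for vehicle, 0.63 ± 0.64 for 30 ng/kg and 1.92 ± 1.08 for 300 ng/kg (SD, n = 3 each). Against vehicle, the 300 ng/kg group was 1.82 ± 0.70 log2 units higher (SE; 95% confidence interval 0.23 to 3.41), or 3.53-fold, with an adjusted p of 0.301. Its unadjusted p in limma was 0.0290, and 15.5% of all tested probes had an unadjusted p under 0.05 in that comparison. Neither neighbouring step passed: 30 ng/kg minus vehicle was 0.53 ± 0.70 and 300 minus 30 ng/kg was 1.29 ± 0.70 (SE; adjusted p = 0.962 and 0.316). The difference at 300 ng/kg was 1.12 without vehicle replicate 3, the low vehicle animal, and 2.43 without 300 ng/kg replicate 2. The dose order was not kept either without vehicle replicate 3, where 30 ng/kg minus vehicle was -0.18, or with array weights, where it was -0.24.

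The mean KRT5 level was 0.36 ± 1.90 for vehicle, -0.16 ± 1.68 for 30 ng/kg and 1.90 ± 0.78 for 300 ng/kg (SD, n = 3 each), so its order had 30 ng/kg lowest, and no neighbouring pair passed the test. The 300 ng/kg group was 1.54 ± 1.04 above vehicle and 2.06 ± 1.04 above 30 ng/kg (SE; adjusted p = 0.462 and 0.288), and 30 ng/kg minus vehicle was -0.51 ± 1.04. The interval of the first difference, -0.80 to 3.89, held both no difference and a large one. Without vehicle replicate 3 the difference between 300 ng/kg and vehicle was 0.46. KRT14, the filament partner of KRT5, differed little in mean: its means were -0.29 ± 1.44 for vehicle, -0.75 ± 0.97 for 30 ng/kg and -0.34 ± 0.79 for 300 ng/kg (SD, n = 3 each), and 300 ng/kg minus vehicle was -0.05 ± 0.76 (SE; interval -1.75 to 1.66; adjusted p = 0.978).

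**Figure D1:**
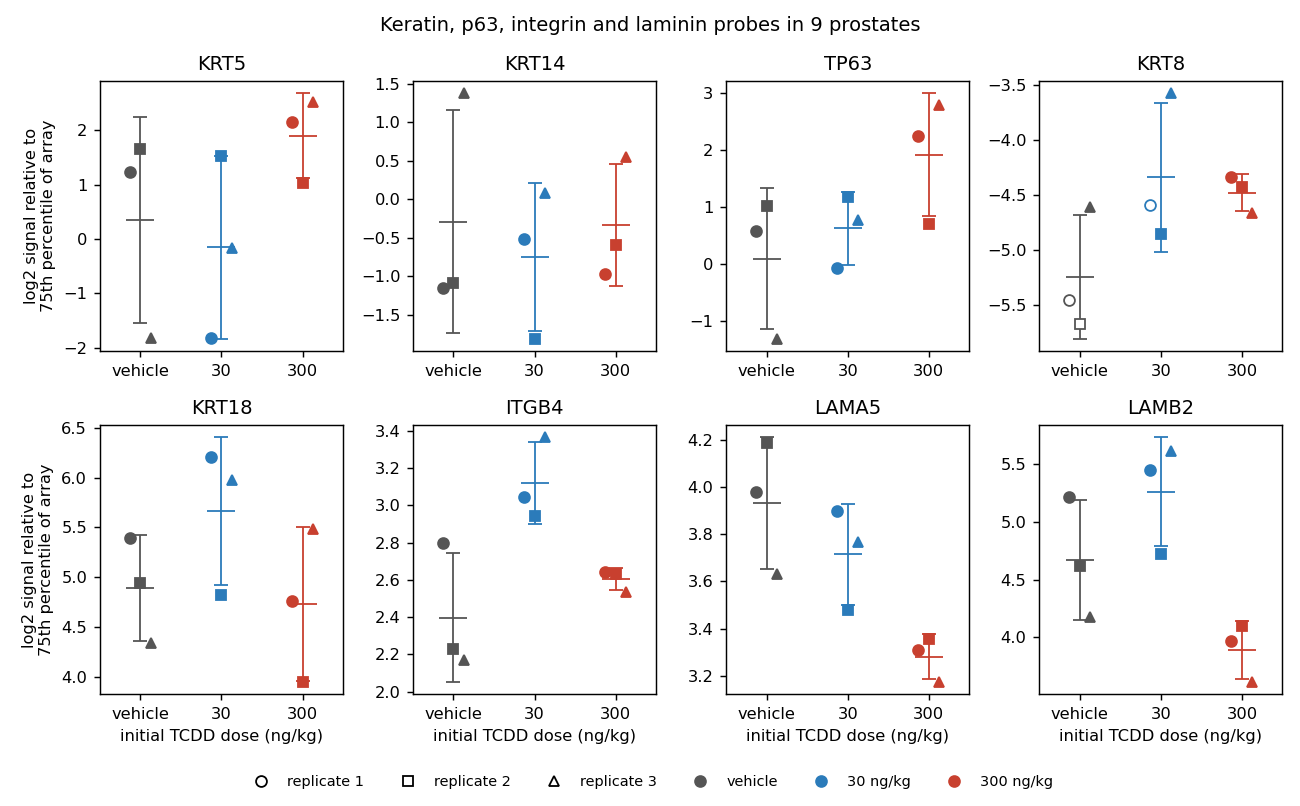
Level of each of the 8 probes (log2 signal over the array's 75th percentile) by initial TCDD dose in ng/kg, 1 symbol per animal, shaped by replicate number, with group means and SD bars; open symbols are arrays where the probe was not well above background. LAMA5 and LAMB2 at 300 ng/kg lie below all vehicle animals, ITGB4 at 30 ng/kg lies above all vehicle animals, and the basal keratins and TP63 spread over several log2 units.

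The luminal keratin KRT18 was steadier than the basal genes, though more variable than most tested probes. It stood at 5.39, 4.94 and 4.34 in vehicle, at 6.21, 4.82 and 5.98 at 30 ng/kg, and at 4.76, 3.94 and 5.49 at 300 ng/kg. These groups overlapped in all 3 comparisons. Its means were 4.89 ± 0.53 for vehicle, 5.67 ± 0.74 for 30 ng/kg and 4.73 ± 0.77 for 300 ng/kg (SD, n = 3 each). The difference 300 ng/kg minus vehicle was -0.16 ± 0.49, 30 ng/kg minus vehicle was 0.78 ± 0.49 and 300 minus 30 ng/kg was -0.94 ± 0.49 (SE). None passed (adjusted p = 0.896, 0.946 and 0.304). The interval at 300 ng/kg against vehicle, -1.27 to 0.96, includes a difference of 1 log2 unit in the lower direction.

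KRT8, whose protein pairs with that of KRT18, stood near the limit of detection, at -5.45, -5.67 and -4.61 in vehicle, at -4.60, -4.85 and -3.58 at 30 ng/kg, and at -4.34, -4.43 and -4.66 at 300 ng/kg. Both exposed groups had higher means than vehicle, by 0.77 ± 0.39 at 300 ng/kg and by 0.90 ± 0.39 at 30 ng/kg (SE; adjusted p = 0.358 and 0.946), and each overlapped vehicle through vehicle replicate 3. Only the 300 ng/kg group had the probe well above background in every animal, so these sizes are uncertain and are no evidence of a change. Its 2 spots differed on the same array by a median of 0.32 log2 units, the widest of the 8 genes. With another background correction (normexp) the difference at 300 ng/kg was -0.33, where the median of all probes was -0.22, so its direction depended on how the background was removed.

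ITGB4, the hemidesmosome integrin, had its highest level at the low dose. It stood at 2.79, 2.23 and 2.17 in vehicle, at 3.04, 2.94 and 3.37 at 30 ng/kg, and at 2.64, 2.63 and 2.53 at 300 ng/kg. All 3 animals of 30 ng/kg lay above all 3 vehicle animals and above all 3 of 300 ng/kg. The 30 ng/kg group was 0.72 ± 0.24 above vehicle (SE; interval 0.19 to 1.26; adjusted p = 0.946), and 300 ng/kg minus vehicle was 0.21 ± 0.24 (adjusted p = 0.670). Between the doses, 300 minus 30 ng/kg was -0.52 ± 0.24 (SE; adjusted p = 0.255), so neither neighbouring pair in the order of its levels passed the test. The authors' deposited table gives ITGB4 as 1.65-fold up at 30 ng/kg and 1.16-fold up at 300 ng/kg.

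LAMA5, the laminin alpha 5 chain, had its lowest levels at the high dose. It stood at 3.98, 4.19 and 3.63 in vehicle, at 3.90, 3.48 and 3.77 at 30 ng/kg, and at 3.31, 3.36 and 3.17 at 300 ng/kg. The 300 ng/kg animals lay below every animal of both other groups. Their mean was 3.28 ± 0.10, against 3.93 ± 0.28 in vehicle animals (SD, n = 3 each), a difference of -0.65 ± 0.22 (SE; interval -1.16 to -0.14; adjusted p = 0.283). At 30 ng/kg the difference from vehicle was -0.22 ± 0.22 with overlapping groups, and 300 minus 30 ng/kg was -0.43 ± 0.22 (SE; adjusted p = 0.946 and 0.297). The authors' deposited table gives LAMA5 as 1.16-fold down at 30 ng/kg and 1.57-fold down at 300 ng/kg.

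LAMB2, the laminin beta 2 chain, had the smallest p of the 8 genes in any comparison, between the 2 doses. It stood at 5.22, 4.62 and 4.18 in vehicle, at 5.45, 4.72 and 5.61 at 30 ng/kg, and at 3.97, 4.10 and 3.61 at 300 ng/kg. The 300 ng/kg animals lay below every animal of both other groups, while 30 ng/kg and vehicle overlapped. The mean was 3.89 ± 0.25 at 300 ng/kg and 5.26 ± 0.47 at 30 ng/kg (SD, n = 3 each), a difference of -1.37 ± 0.34 (SE; interval -2.13 to -0.61), or 0.387 of the signal at 30 ng/kg. Its unadjusted p in limma was 0.00283 and its adjusted p 0.160; without 30 ng/kg replicate 2 the difference was -1.64 and the adjusted p 0.0411, past the threshold. Against vehicle, LAMB2 differed by -0.78 ± 0.34 at 300 ng/kg and by 0.59 ± 0.34 at 30 ng/kg (SE; adjusted p = 0.314 and 0.946). The authors' deposited table gives LAMB2 as 1.50-fold up at 30 ng/kg and 1.71-fold down at 300 ng/kg.

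**Figure D2:**
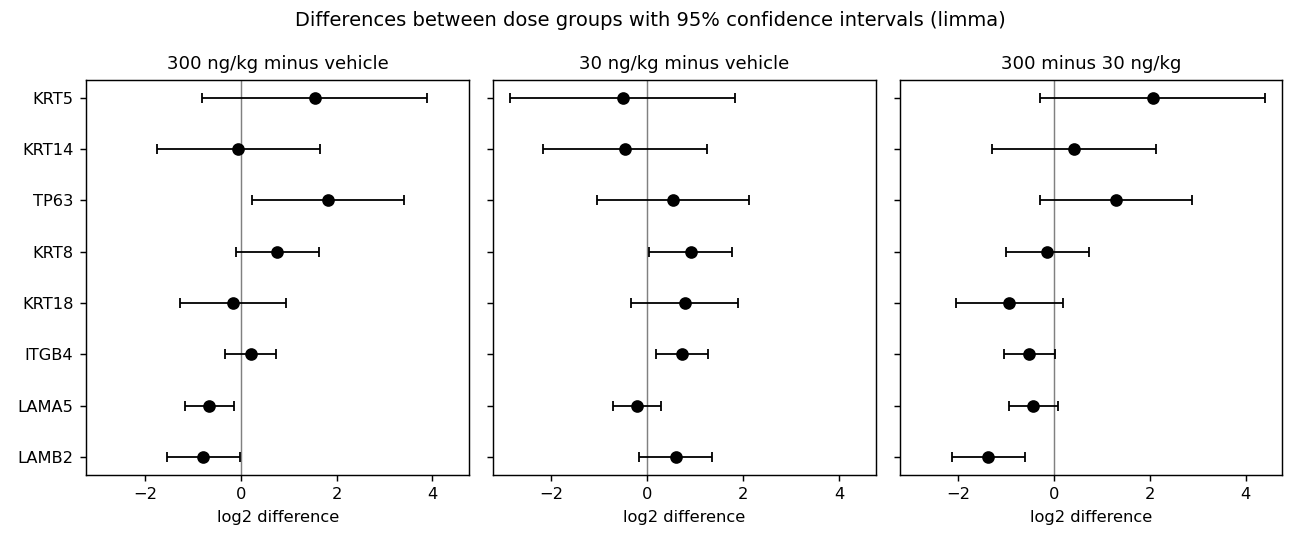
Log2 differences of the 8 genes in the 3 comparisons, with 95% confidence intervals from limma; the vertical line is no difference. The intervals of KRT5, KRT14 and TP63 span several log2 units, those of LAMA5, ITGB4 and LAMB2 are narrower, and none of the differences has an adjusted p under 0.05.

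Counted over the 8 genes, the differences at the high dose ran in both directions. For 300 ng/kg minus vehicle 4 were higher and 4 lower, with a median of 0.08, beside -0.01 over all tested probes. The higher genes include KRT8, which entered the fit only through the 300 ng/kg group, and this favoured its direction. Among the 8 genes 3 had an unadjusted p under 0.05 in limma, TP63 higher and LAMA5 and LAMB2 lower. At that p, 7.38% of all tested probes were called higher and 8.17% lower. LAMA5 and LAMB2 came from the authors' deposited table, whose selection on these same arrays favoured small p-values. Their count is therefore no excess over those shares, and of the 5 genes taken by accession 1 had such a p. LAMA5 and LAMB2 were also the 2 genes whose 300 ng/kg and vehicle groups did not overlap, which held for 22.7% of all tested probes, 11.5% higher and 11.2% lower. With that background, 2 of 8 is no result about these genes.

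For 30 ng/kg minus vehicle 5 genes were higher and 3 lower, with a median of 0.56 beside 0.02 over all tested probes. KRT8 and ITGB4, both higher, had an unadjusted p under 0.05, as did 5.05% of all tested probes, 3.23% higher and 1.83% lower. KRT8 entered the fit only through the 300 ng/kg group, which is not part of this comparison. ITGB4 was the 1 gene without overlap, beside 9.38% of all tested probes, 4.93% higher and 4.45% lower. For 300 minus 30 ng/kg 3 genes were higher and 5 lower, with a median of -0.29 beside -0.03 over all. LAMB2 alone had an unadjusted p under 0.05, beside 20.6% of all tested probes, 8.12% higher and 12.5% lower. ITGB4, LAMA5 and LAMB2 lay lower without overlap, as 14.4% of all tested probes did, while 11.2% lay higher, and 25.6% lay apart in either direction. These 3 genes came from the authors' deposited table, whose selection on these same arrays favoured such separation, so their count is no excess over that share. Of the 5 genes taken by accession, 0 lay without overlap in any of the 3 comparisons. An unadjusted p under 0.05 was held by 1 of the 5 in each comparison with vehicle and by 0 between the doses. The differences against vehicle share the same 3 vehicle arrays, and those of each dose share that dose's arrays with the comparison between doses.

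The genes differed widely in how much animals of the same group varied. The residual SD was 1.53 log2 units for KRT5, 1.10 for KRT14 and 1.02 for TP63, which put them at the 98.8th, 95.8th and 94.3th percentile of all tested probes, whose median was 0.400. KRT18 had 0.690, at the 80.6th percentile, KRT8 0.515 and LAMB2 0.432. ITGB4 had 0.240 and LAMA5 0.211, LAMA5 at the 12.2th percentile. The 2 spots of a probe on an array differed by far less: those of KRT5 differed by at most 0.21 on any array while its level ranged over 4.36 between arrays, and those of TP63 differed by at most 0.13 against a range of 4.10. With 1 array per animal, differences between animals and between labellings, hybridisations or slides cannot be told apart.

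Over the 9 arrays KRT5 and TP63 moved together, with a Pearson r of 0.881, and 0.906 after the group means were subtracted. TP63 stood at rank 101 of 15159 probes in likeness to KRT5. KRT5 and KRT14 ran against each other, with an r of -0.470, and -0.689 after the group means were subtracted. KRT8 and KRT18 showed little relation, at 0.164, but the KRT8 probe stood near the limit of detection, so no lack of relation is read from this. LAMB2 went with LAMA5 at 0.712, with ITGB4 at 0.699 and with KRT18 at 0.650. These values describe 9 arrays that share slides and overall brightness, and say nothing of shared function.

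**Figure D3:**
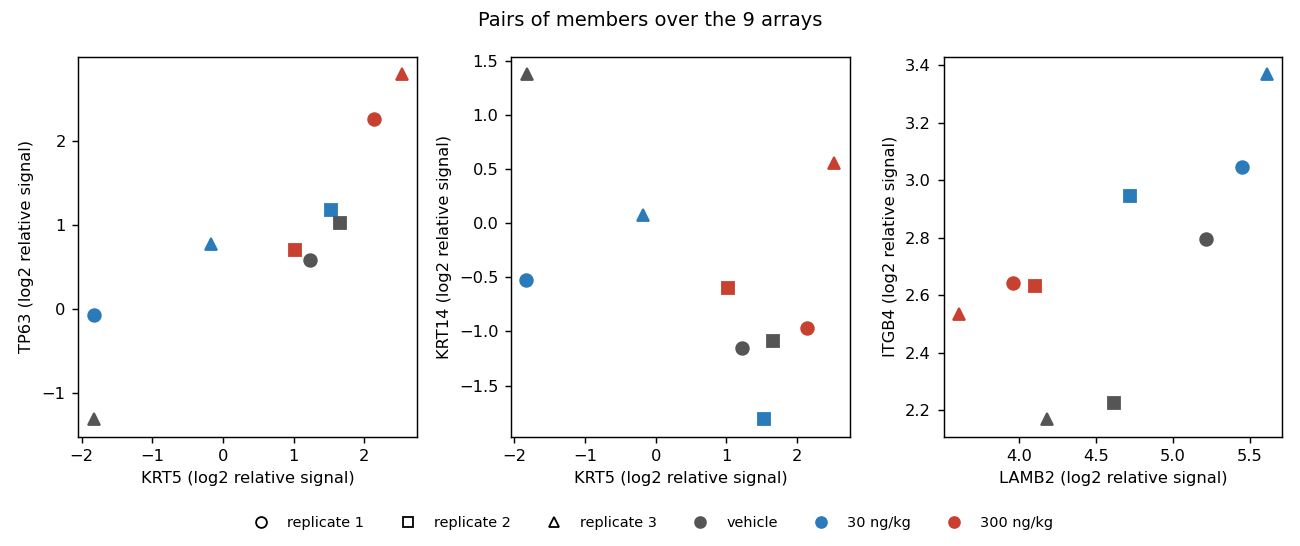
Levels (log2 relative signal) of KRT5 against TP63, KRT5 against KRT14 and LAMB2 against ITGB4, 1 point per array, coloured by dose and shaped by replicate number. TP63 is high where KRT5 is high (r = 0.881), the vehicle array with the highest KRT14 has low KRT5, and all 3 arrays of 300 ng/kg lie at the low LAMB2 end.

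Among the genes that carry a symbol in the authors' deposited table, the 2 closest in pattern to each gene were SCFD2 and B4GALT1 for KRT5 (r = 0.915 and 0.898), TPST1 and SNX5 for TP63 (both 0.921), and RHOQ and FLJ45187 for KRT14 (0.625 and 0.540). For the luminal keratins they were COL5A2 and CNOT6L with KRT8 (0.938 and 0.927) and SPINT1 and CBLC with KRT18 (0.887 and 0.884). SPINT1 encodes an inhibitor of serine proteases on epithelial cells, and COL5A2 encodes a fibrillar collagen chain. For the adhesion genes they were KRT6L and KIAA1115 with ITGB4 (0.940 and 0.926), LIX1 and SPG7 with LAMA5 (0.955 and 0.953) and SELO and RPS6KB2 with LAMB2 (0.987 and 0.982). Each r is over 9 arrays and was chosen as the highest of up to 1192, and the table's selection by dose favours genes that follow the groups. KRT14 had the weakest best match of the 8.

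The difference between 2 probes on the same array does not depend on how that array was scaled, and only its change between groups is read here. KRT5 minus KRT18 lay between -6.16 and -3.28 in vehicle, between -8.03 and -3.28 at 30 ng/kg and between -2.95 and -2.62 at 300 ng/kg. TP63 minus KRT18 lay between -5.65 and -3.92 in vehicle, between -6.28 and -3.64 at 30 ng/kg and between -3.24 and -2.51 at 300 ng/kg. In both pairs all 3 animals of 300 ng/kg lay above every other animal. For KRT14 the 300 ng/kg animals lay inside the vehicle range: KRT14 minus KRT18 lay between -6.55 and -2.96 in vehicle, between -6.73 and -5.90 at 30 ng/kg and between -5.73 and -4.54 at 300 ng/kg. The first 2 pairs were chosen after their values were seen. Relative to KRT18, 4.66% of all tested probes were higher without overlap at 300 ng/kg than in vehicle, and 9.86% than at 30 ng/kg. How many lay above both groups at once was not counted.

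The mean of KRT5, KRT14 and TP63 minus the mean of KRT8 and KRT18 was 1.03 ± 0.47 at 300 ng/kg, with a range of 0.62 to 1.55, against 0.23 ± 0.67 in vehicle, with a range of -0.45 to 0.90 (SD, n = 3 each). Those groups overlapped. At 30 ng/kg the same difference was -0.76 ± 0.98, ranging from -1.61 to 0.32, below all 3 animals of 300 ng/kg. How often other sets of probes lay apart in this way was not counted, so no result is read from this separation. The step between 300 ng/kg and vehicle was 0.80, and 0.46 without vehicle replicate 3. The luminal mean includes the KRT8 probe, which stood near the limit of detection. With KRT18 alone as the luminal gene the step was 1.26, and with KRT5 and TP63 alone as the basal genes it was 1.38. KRT5 minus KRT14 ranged from -3.19 to 2.75 in vehicle, -1.31 to 3.35 at 30 ng/kg and 1.62 to 3.11 at 300 ng/kg, so the balance within the basal keratin pair differed more between vehicle animals than between groups.

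LAMB2 minus LAMA5 was highest at the low dose. It lay between 0.43 and 1.24 in vehicle, between 1.24 and 1.85 at 30 ng/kg and between 0.44 and 0.75 at 300 ng/kg, so that all 3 animals of 30 ng/kg lay above all vehicle animals, though the closest animals of both groups round to 1.24. Both genes were selected on these same arrays, and how many other probes lay apart relative to LAMA5 was not counted. No result is therefore read from this separation. The means at 300 ng/kg and in vehicle, 0.61 ± 0.16 and 0.74 ± 0.44 (SD, n = 3 each), differed by less than the vehicle SD. Against vehicle, the 2 chains differed by -0.78 and -0.65 at 300 ng/kg and by 0.59 and -0.22 at 30 ng/kg, LAMB2 first in each pair.

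**Figure D4:**
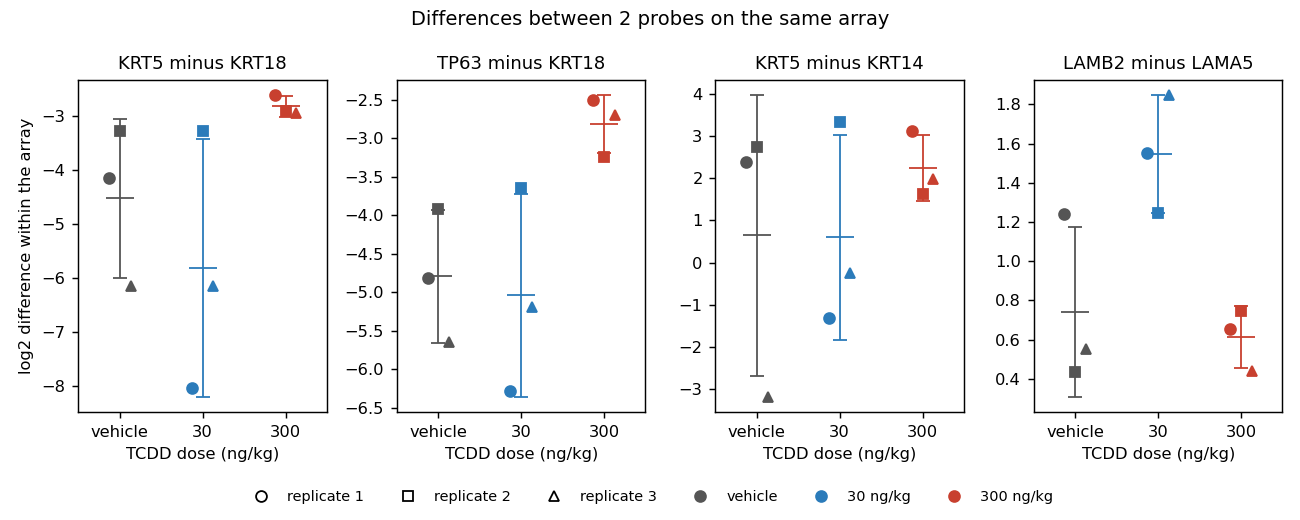
Log2 difference between 2 probes on the same array by initial TCDD dose in ng/kg, 1 symbol per animal, with group means and SD bars. KRT5 minus KRT18 and TP63 minus KRT18 lie above all other animals at 300 ng/kg, KRT5 minus KRT14 overlaps throughout, and LAMB2 minus LAMA5 is high at 30 ng/kg.

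Brightness and slide moved with several of these levels, and their part in the dose differences was not tested. Over the 9 arrays the log2 of the 75th percentile went with LAMB2 at an r of -0.898, LAMA5 at -0.642, KRT18 at -0.622, KRT5 at 0.713 and TP63 at 0.583, and it was highest at 300 ng/kg. With brightness as a covariate, a choice made after the data were seen, 300 ng/kg minus vehicle was 0.41 for KRT5, 1.32 for TP63, -0.53 for LAMA5 and -0.30 for LAMB2, and 300 minus 30 ng/kg was 0.39 for KRT5, 0.55 for TP63, -0.25 for LAMA5 and -0.67 for LAMB2. Between the doses all 4 differences were smaller by over 1.5 times with this term than without it, and so were those of KRT5 and LAMB2 against vehicle, while all kept their direction.

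Within slide 3, the 3 arrays of 300 ng/kg stood above the 1 of 30 ng/kg by 2.07 in KRT5 and 1.14 in TP63, and below it by -1.72 in LAMB2, -1.24 in KRT18, -0.76 in ITGB4, -0.49 in LAMA5, -0.42 in KRT14 and -0.90 in KRT8. Within slide 2, the 2 arrays of 30 ng/kg minus vehicle replicate 3 gave 1.67 in KRT5, 1.86 in TP63, -2.54 in KRT14, 1.17 in KRT18, 0.83 in ITGB4, 0.91 in LAMB2, 0.06 in LAMA5 and -0.11 in KRT8. That 1 vehicle animal held the lowest KRT5 and the highest KRT14 of its group. With slide as a fixed block, 300 ng/kg minus vehicle rests on the same animal, and it was 3.75 for KRT5, 3.00 for TP63, -2.96 for KRT14, -0.43 for LAMA5 and -0.81 for LAMB2. With slide as a random block TP63 was 1.85, KRT5 1.61, LAMA5 -0.65 and LAMB2 -0.80 in that comparison.

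**Figure D5:**
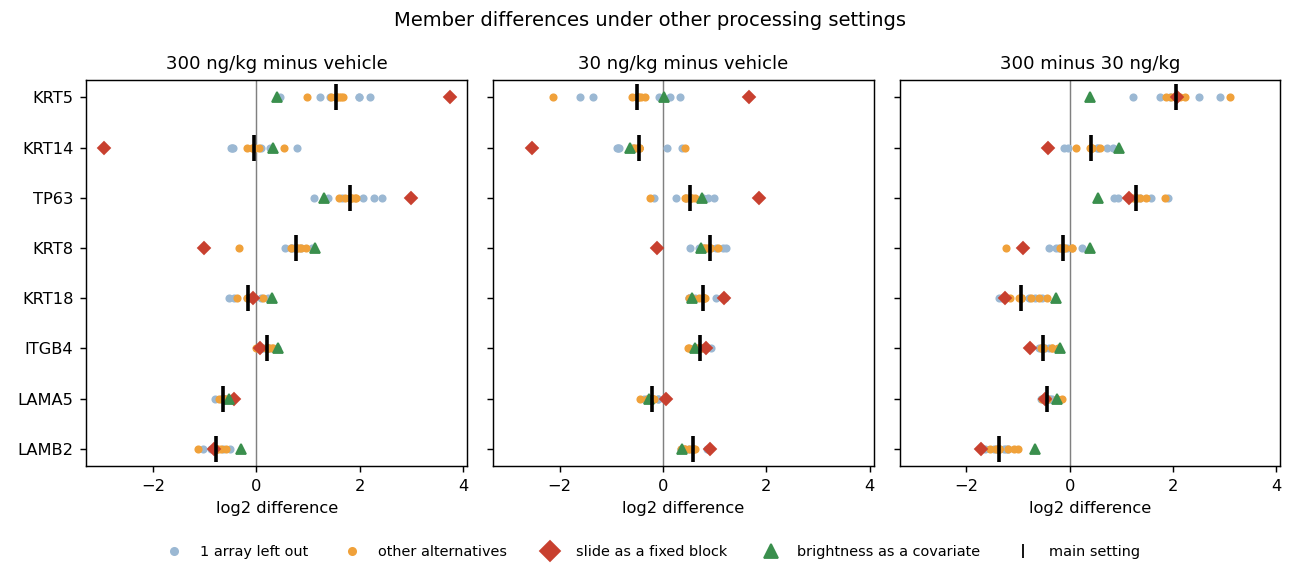
Log2 differences of the 8 genes in the 3 comparisons under the reported setting (black bars), with 1 array left out, with slide as a fixed block, with brightness as a covariate and under the other alternatives. TP63, LAMA5 and LAMB2 keep their side of 0 throughout for 300 ng/kg minus vehicle, whereas KRT14 falls on both sides.

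Other genes of the same cell layers could be named only through the authors' deposited table, so every one was selected on these arrays. Of 25 basal epithelial genes listed, 5 were tested, KRT5, KRT14, TP63, ITGB4 and S100A2, and for 300 ng/kg minus vehicle 4 were higher and 1 lower, none past the adjusted threshold. S100A2, a calcium-binding protein of basal cells and a known p63 target, had levels of -3.22, -5.09 and -2.52 at 300 ng/kg, against -5.43, -5.10 and -4.94 in vehicle, where 2 arrays were well above background; at 30 ng/kg 1 was, so S100A2 entered the fit only through the 300 ng/kg group. For that reason no size is given for its difference (adjusted p = 0.296 against vehicle). Its lowest value at 300 ng/kg lay inside the vehicle range, in the same animal, replicate 2, that had the lowest KRT5 and TP63 of that group. Of 27 p63 partners and targets 3 were tested, S100A2, VDR and ITGB4, all higher at 300 ng/kg than in vehicle. The counts of higher genes in both lists include S100A2, whose direction was favoured by the way it entered the fit. VDR, the vitamin D receptor, differed by 2.15 ± 0.61 (SE; adjusted p = 0.267).

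Of 37 further keratins and filament partners only KRT13 and KRT23 were tested, and both entered the fit only through the 300 ng/kg group, so that no size is given for their differences. KRT23 stood at 0.47, -3.88 and -0.31 at 300 ng/kg, against -4.37, -4.76 and -6.08 in vehicle, where 2 arrays were well above background (adjusted p = 0.267), and on no array of 30 ng/kg was it well above background. KRT13, a keratin of non-keratinised stratified epithelium, stood at -4.13, -3.39 and -1.20 at 300 ng/kg, while 2 vehicle arrays and all of 30 ng/kg were at the floor of -6.10 and the other vehicle array at -4.86 (adjusted p = 0.267 against vehicle). In KRT23 too, replicate 2 was the lowest of the 300 ng/kg animals. Of 44 basement membrane and hemidesmosome genes only ITGB4, LAMA5 and LAMB2 were tested.

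Of 26 luminal genes 5 were tested, and for 300 ng/kg minus vehicle 2 were higher and 3 lower. The higher genes were TGM4 and KRT8, and KRT8 entered the fit only through the 300 ng/kg group, which favoured its direction. MSMB, a major secreted protein of luminal cells, was well above background on all 9 arrays and differed by -0.73 ± 0.36 at 300 ng/kg and 0.79 ± 0.36 at 30 ng/kg against vehicle (SE; adjusted p = 0.353 and 0.946), with the same order of dose means as KRT18 and LAMB2. TGM4, a transglutaminase that the prostate secretes into semen, went the other way: it stood at 6.81, 1.42 and 7.41 at 300 ng/kg, against -3.89, -4.55 and -2.54 in vehicle, a difference of 8.87 ± 1.44 (SE; adjusted p = 0.216), and replicate 2 was again the lowest animal of 300 ng/kg. KLK3, which encodes prostate-specific antigen, gave -1.18 ± 0.49 at 300 ng/kg against vehicle (SE; adjusted p = 0.304), but its probe had saturated spots on most arrays, so this size is uncertain. Markers of other cell types could likewise be named only through the authors' deposited table. Its selection on these same arrays favoured small p-values, so these differences are not independent evidence. Of 26 smooth muscle and stroma genes 5 were tested: the muscle genes SGCA, LMOD1 and TPM2 were lower at 300 ng/kg than in vehicle, by -1.74, -0.80 and -0.73, and the collagens COL1A1 and COL1A2 higher, by 1.54 and 0.75. All had an unadjusted p under 0.05 in limma, beside 7.38% of all tested probes higher and 8.17% lower. Of 27 endothelial, immune and blood genes 4 were tested, of which 3 were higher at 300 ng/kg with an unadjusted p under 0.05, beside 7.38% of all tested probes. Among these 3, CTSS and FCER1A entered the fit only through the 300 ng/kg group, which favoured their direction. PECAM1, an endothelial gene, differed by 0.00 at 300 ng/kg and by 1.31 at 30 ng/kg against vehicle. Of 27 genes of stratified, hillock, urothelial and seminal vesicle epithelium 2 were tested and both were higher, including KRT13, which entered only through the 300 ng/kg group. Of 21 neuroendocrine, nerve and adipocyte genes 4 were tested, 1 higher and 3 lower. None of these passed the adjusted threshold, and the part of cell makeup in the keratin and laminin differences was not tested.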

How the data were processed

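RNA of 9 prostates was labelled with Cy3 and hybridised to 9 Agilent 1-colour arrays. The authors read the images with Agilent Feature Extraction 9.5.1.1, per the file headers (9.5 in the submitters' processing notes). The deposited processed signal is an intensity, background-subtracted per array. The authors' deposited table holds a fold as a ratio with its direction, and group means as log2 values; how the authors normalized them is not stated in the labels or headers. The table's 9 per-sample flag columns were left aside. Groups were taken from the dose in the labels.

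Outlier spots were left out, the 2 spots of a probe averaged, and the mean divided by the array's 75th percentile. Values under what 5 signal units are on the dimmest array were set to that floor before taking log2. Of the probes, 15160 were tested and 5057 were not. R 4.3.3 and limma 3.58.1 fitted 3 group means, 2-sided, with 6 residual degrees of freedom, after the same fit was run on simulated log2 levels. The handling of spots, the scaling, the floor and the choice of tested probes were not part of that simulation. The number of arrays limits the precision. P-values measure the spread between offspring of a group, and whether the offspring came from separate dams is not given in the labels used here.

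All 8 genes were named. For each, the 2 genes most like it by Pearson r were named among those with a symbol in the authors' table, and from each list tested genes with an unadjusted p under 0.05, up to 6 per list; some that met this are counted but not named. The genes, the lists and the tests were chosen with earlier results of these data known. Alternatives were normexp (offset 50, on the median signal, since the mean signal is not among the columns used), scaling by quantiles or by the median, testing all probes or those above background on all 9 arrays, fitting the compared groups alone, a fixed or random slide block, a block for the replicate number, array weights, a floor of 1 unit and leaving out each array. Brightness as a covariate and the other basal and luminal sets were added after the data were seen. Same-numbered arrays deviated together with r of -0.26 to 0.54, and 5 of 9 pairs were over 0.1, so the numbers were not taken to pair animals.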

Additional observations from a re-analysis of the deposited data

How the results depend on the processing

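Over 24 differences (8 genes in 3 comparisons) and up to 21 alternatives, 190 of 501 values equalled the reported one, as other filters, the lower floor, the replicate block, the fit on the compared groups or an array left out of the third group left these differences of means as they were. Of the other 311 values 280 kept their direction, and 13 differences had no reversal. KRT8 has no value under the filter on all 9 arrays. Under array weights, 3 genes were called for 300 minus 30 ng/kg, KRT5 (3.10), TP63 (1.85) and LAMB2 (-1.54, adjusted p = 0.0216 by limma), beside 2951 probes in that comparison and 198 for 300 ng/kg minus vehicle, where the reported count is 0. The called probes for 300 minus 30 ng/kg numbered 1 with quantile scaling, 3 with median scaling and 2 with slide as a fixed block, which also gave 6 for 30 ng/kg minus vehicle. With the replicate number as a block 1 probe was called for 300 minus 30 ng/kg, none of the 8 genes was, and LAMB2 kept -1.37 (adjusted p = 0.157). With 1 array left out, called probes ranged from 0 to 271 for 300 ng/kg minus vehicle (271 without 300 ng/kg replicate 2), 0 to 1 for 30 ng/kg minus vehicle (1 without 30 ng/kg replicate 2) and 0 to 774 for 300 minus 30 ng/kg (774 without 30 ng/kg replicate 2, 155 without 300 ng/kg replicate 2), and called genes of the 8 from 0 to 1 in the last (LAMB2, without 30 ng/kg replicate 2).

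Reversed directions were as follows. For 300 ng/kg minus vehicle, KRT8 was -0.33 with normexp and -1.01 with slide as a fixed block, KRT18 was 0.12 with quantile scaling and 0.30 with brightness as a covariate, KRT14 was 0.044 with median scaling, 0.54 with array weights and 0.32 with brightness, and ITGB4 was -0.014 with array weights. For 30 ng/kg minus vehicle, slide as a fixed block gave 1.67 for KRT5, -0.11 for KRT8 and 0.058 for LAMA5, array weights gave 0.42 for KRT14 and -0.24 for TP63, and brightness gave 0.018 for KRT5. For 300 minus 30 ng/kg, KRT8 was 0.038 with quantile scaling, 0.042 with median scaling and 0.40 with brightness, and KRT14 was -0.42 with slide as a fixed block. With 1 array left out, KRT14 ranged from -0.49 to 0.79 for 300 ng/kg minus vehicle, -0.89 to 0.37 for 30 ng/kg minus vehicle and -0.12 to 0.83 for 300 minus 30 ng/kg. KRT18 ranged from -0.54 to 0.23 for 300 ng/kg minus vehicle, KRT5 from -1.60 to 0.32 and TP63 from -0.18 to 0.99 for 30 ng/kg minus vehicle, and KRT8 from -0.39 to 0.24 for 300 minus 30 ng/kg. The cause of these changes was not tested. With 3 arrays a group and 6 residual degrees of freedom, and KRT8 near background, moderate differences of these genes could not be told from the spread between animals. Under normexp the median of all probes was -0.22 for 300 ng/kg minus vehicle, 0.29 for 30 ng/kg minus vehicle and -0.52 for 300 minus 30 ng/kg, against reported medians of -0.01, 0.02 and -0.03.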
